A study of Mus musculus with 9 samples.

Results

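Egr1, Egr2, Egr3, Nr4a1, Nr4a2, Ier2, Ier3, Zfp36, Dusp1 and Btg2 are immediate early response genes outside the AP-1 family, and were taken by symbol from a list of such genes, drawn up with earlier results of these data known. All 10 were found among the 49671 gene rows of the count table, and all 10 were expressed enough to be tested among 18435 genes. The table describes mouse skin cells, sorted as negative for the leukocyte surface protein CD45 and carrying CD49f (integrin alpha-6) on the surface, and labelled as epidermal. Cells came from 5 samples with the Flg genotype wt/wt and 4 samples with the genotype ko/ko, which lack normal filaggrin, a protein that bundles keratin filaments in the outer epidermis. The sources used here name no strain, age, sex, ko allele design or treatment. The study asked how filaggrin deficiency alters gene expression in keratinocytes.

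Immediate early genes are switched on within minutes of a growth factor, cytokine or stress signal, without the need for new protein synthesis. MAP kinases and calcium or cAMP signals activate factors already present, chiefly SRF with its ternary complex partners and CREB, and the resulting transcripts are short-lived because many carry AU-rich elements in the 3' untranslated region. In skin they respond to wounding, growth factors, ultraviolet light and the handling of cells. All 9 libraries here came from sorted cell suspensions, so levels in intact skin were not measured.

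Promoter windows were searched for the sites through which this class is known to be switched on. RefSeq (GRCm38.p6) promoter windows of 250 bases before to 50 bases after a start site were matched for 7 of the 10 genes, namely Btg2, Nr4a2, Zfp36, Egr2, Nr4a1, Dusp1 and Ier3. Both strands were searched for the CArG box, the SRF site, and for TGACGT, the core of the cAMP response element bound by CREB. A CArG box lay in the windows of 2 of the 7 genes, Egr2 and Zfp36, and in those of 1.81% of all 27025 genes in the table. TGACGT lay in those of 3 of the 7, Btg2, Dusp1 and Egr2, and in those of 8.37% of all genes. Some genes have several windows, 5 for Egr2. The stretches below are shown because they hold these matches, in capitals, read 5′ to 3′ on the strand of the gene.
Zfp36, chr7:28379267-28379296, minus strand: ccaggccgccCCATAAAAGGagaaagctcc
Egr2, chr10:67537484-67537513, plus strand: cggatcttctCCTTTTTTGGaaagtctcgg
Egr2, chr10:67537787-67537828, plus strand: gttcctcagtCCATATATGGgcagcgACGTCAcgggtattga
Dusp1, chr17:26508598-26508673, minus strand: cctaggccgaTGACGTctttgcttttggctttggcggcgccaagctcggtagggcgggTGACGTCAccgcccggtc
Btg2, chr1:134079304-134079331, minus strand: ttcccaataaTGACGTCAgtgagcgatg
Egr2 has several annotated starts, and the second of its stretches held a CArG box and a TGACGT core (on the other strand) within 42 bases. In Btg2 and in the downstream match of Dusp1 the core was read on both strands, because the sites overlap as a palindrome. Of 2 further motifs searched on both strands, the EGR site GTGGGCG lay in a window of Egr2 (8.99% of all genes) and TATAAA in that of Nr4a2 (15.7% of all genes). Among the 15083 windows of genes tested here, the shares were 1.34% for the CArG box, 10.4% for TGACGT, 13.3% for GTGGGCG and 7.98% for TATAAA. A match is a description of these letters only, and factor binding was not measured.

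The AU-rich heptamer TATTTAT occurred in the annotated 3' untranslated regions of 5 of the 10 genes, against 29.9% of 14203 tested genes with such a region in GENCODE M21. Ier3 had 4 copies, Zfp36 and Dusp1 had 3 each, and Btg2 and Nr4a2 had 1 each. Of the 10 genes, 3 had at least 2 copies, against 10.7% of all. Zfp36 encodes tristetraprolin, a protein that binds such elements and speeds mRNA decay, and its own transcript held a pair of copies within 24 bases, as did that of Ier3. These windows are shown with the heptamer in capitals, as DNA.
Ier3: tctaattaaTATTTATgTATTTAT
Zfp36: ttTATTTATgacgacttTATTTAT
The genes also share a compact structure: 9 of 10 spanned less than 10000 bases, against 38.7% of tested genes, and their median number of merged exons was 2, against 7.

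Libraries held 15601859 to 23200440 counts, and levels are given as CPM, the count of a gene scaled to a common library size, after TMM adjustment of library size. Counts for Flg ran from 0 to 6 per library, too few to check the genotype labels. The sorted cells were rich in stromal RNA. Dcn, a fibroblast proteoglycan, ranked 2 by mean CPM and Krt14, the basal keratin, ranked 92, so the values below describe a mixture. In such bulk libraries, fewer cells of a type and less RNA per cell cannot be told apart. Summed over marker lists, fibroblast genes had 14809 to 34945 CPM in wt/wt and 18825 to 35109.6 CPM in ko/ko, and basal keratinocyte genes had 1514 to 3229 and 1744 to 2717 CPM. Summed myeloid markers had 40.8 to 98.6 CPM in wt/wt and 57.8 to 269 CPM in ko/ko, and 11 of the 11 tested had positive log2 fold changes (median 2.50). Of the defining markers, Ptprc had 1 to 17 counts in wt/wt and 18 to 124 in ko/ko, and Cd207, of Langerhans cells, had 0 to 4 and 0 to 59. None of 7 library measures, these sums, the endothelial, mural and Schwann cell and melanocyte sums and the mitochondrial share, differed between genotypes past the threshold (exact permutation adjusted p from 0.389 to 0.738, two-sided, smallest unadjusted p possible 0.00794). The unadjusted p for the myeloid sum was 0.0635 in that exact permutation test. By gene, edgeR called 0 of the 11 tested myeloid markers, and 9 were higher at an unadjusted p under 0.05, beside 8.86% of all genes. DESeq2 called 5 as higher (C1qc, Cd74, Fcer1g, Laptm5 and Ptprc), beside 2.38% of all genes. Among 10 endothelial markers edgeR called 0, and 5 log2 fold changes were positive and 5 negative. Lyve1, of lymphatic vessels, had 52.2 ± 7.48 CPM (SD, n = 4) in ko/ko and 161 ± 66.1 CPM (SD, n = 5) in wt/wt. It was called lower by DESeq2, weighted voom and the fit with 1 surrogate variable, beside 1.04%, 3.17% and 0.233% of all genes. Flt1, with means of 35.5 CPM in ko/ko and 13.0 CPM in wt/wt, was called higher by DESeq2, beside 2.38% of all genes. Among 10 basal keratinocyte markers edgeR also called 0. DESeq2 called Itga6 higher, and weighted voom called Itga6, Dst and Krt15 higher, beside 2.38% and 6.6% of all genes. Itga6, which encodes the sorted protein CD49f, had means of 83.0 CPM in ko/ko and 53.4 CPM in wt/wt. The part of these cell types in the values of the 10 genes was not tested.

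The 10 genes together took 2.73% to 2.96% of all counts in every library. Their share averaged 2.83% ± 0.111 (SD, n = 5) in wt/wt and 2.85% ± 0.0212 (SD, n = 4) in ko/ko, and the ko/ko range of 2.83% to 2.88% lay inside the wt/wt range. By the 8 AP-1 genes, a neighbouring class of immediate early factors, another 1.94% to 2.81% of counts was taken. Genes with both high and low levels contributed, as the plot of CPM by gene shows.

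**Figure D1:**
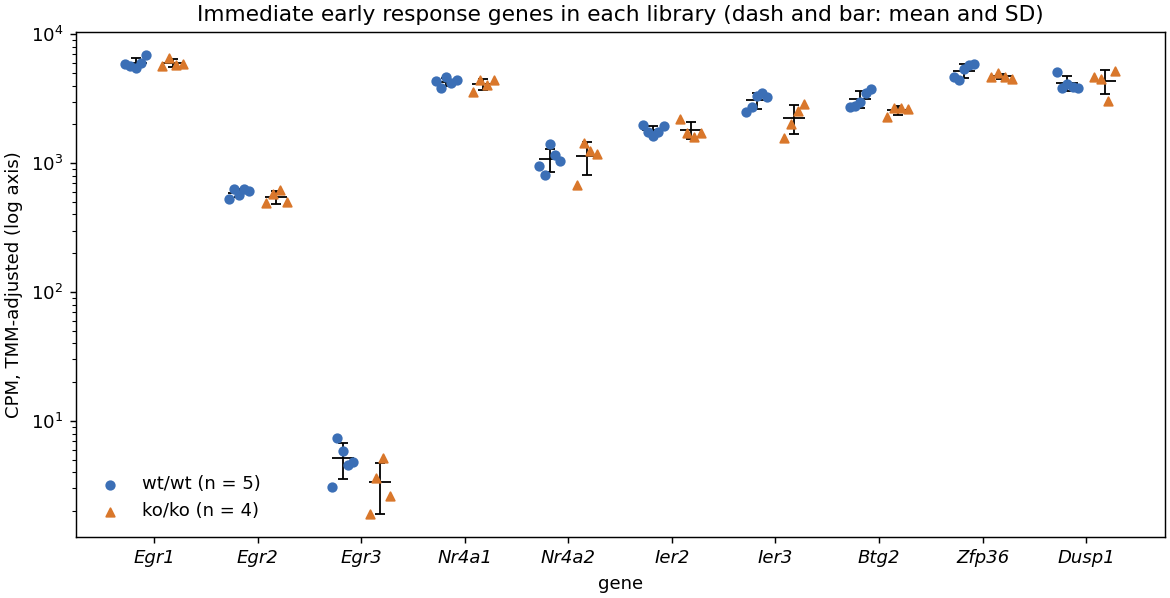
CPM with TMM-adjusted library sizes (log axis) of the 10 genes in each of 5 wt/wt (circles) and 4 ko/ko (triangles) libraries, with the mean and SD. Egr1 lies between 5499.99 and 6874 CPM in all 9 libraries and Egr3 between 1.91 and 7.35 CPM, and the genotypes overlap for every gene except Btg2.

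The EGR genes encode zinc finger transcription factors of shared structure, and their levels spanned nearly the whole range of the set. Egr1, the best known of them and a factor of growth and wound responses, had 5919.7, 5698, 5500.0, 5979 and 6874 CPM in wt/wt replicates 1 to 5 and 5636, 6566, 5749 and 5900.3 CPM in ko/ko replicates 1 to 4. The ko/ko values all lay inside the wt/wt range. The log2 fold change of ko/ko over wt/wt was -0.0076 (SE 0.15, edgeR adjusted p = 0.986), with a 95% interval of the fold change of 0.797 to 1.242.

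Egr2, a factor known for nerve myelination that is also induced by growth signals, had 531, 627, 566, 626 and 606 CPM in wt/wt and 494, 577, 615 and 496 CPM in ko/ko. The lowest pair, ko/ko replicates 1 and 4, lay under the wt/wt range, and the other ko/ko libraries lay within it. The difference in log2 CPM by edgeR was -0.12 (SE 0.14, edgeR adjusted p = 0.718, fold interval 0.751 to 1.134). Egr3, a factor that often acts beside Egr1 and Egr2, was far lower, with 33 to 153 counts per library, or 3.10, 7.35, 5.86, 4.58 and 4.82 CPM in wt/wt and 1.91, 3.62, 5.20 and 2.63 CPM in ko/ko. It was high in wt/wt replicate 2 and low in ko/ko replicate 1, with overlap between the genotypes. Its log2 fold change was -0.62 (SE 0.35, edgeR adjusted p = 0.428), with a fold interval of 0.381 to 1.112. The exons counted for Egr3 end 2457 bases before the end of the gene in GENCODE M21, so reads from that stretch were not in its count.

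The NR4A genes encode orphan nuclear receptors that act without a known hormone and respond to cAMP, calcium and stress. Nr4a1 had 4328, 3828, 4667, 4159 and 4419 CPM in wt/wt and 3532, 4443, 4025 and 4396 CPM in ko/ko. Apart from ko/ko replicate 1, the ko/ko values lay within the wt/wt range. On the log2 scale ko/ko over wt/wt was -0.062 (SE 0.15, edgeR adjusted p = 0.87, fold interval 0.766 to 1.198).

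Nr4a2 varied more between libraries of the same genotype. It had 952, 809, 1395, 1147 and 1045 CPM in wt/wt and 679, 1427, 1246 and 1172 CPM in ko/ko. The lowest and the highest of all 9 values were both from ko/ko, in replicates 1 and 2. The coefficient of variation (SD over mean) was 20.6% in wt/wt and 28.3% in ko/ko, and the log2 fold change was 0.080 (SE 0.23, edgeR adjusted p = 0.894, fold interval 0.747 to 1.496).

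Ier2, a nuclear protein gene named for its immediate early response, and Ier3, a stress-induced gene linked to cell survival, differed in pattern. Ier2 had 1977, 1731, 1635, 1742 and 1936 CPM in wt/wt and 2199.6, 1699, 1587 and 1708 CPM in ko/ko. Its highest value was in ko/ko replicate 1, the library in which 6 of the other genes were lowest. The log2 fold change was -0.0046 (SE 0.15, edgeR adjusted p = 0.99, fold interval 0.791 to 1.256). Ier3 had 2512, 2724, 3325, 3510.4 and 3231 CPM in wt/wt and 1572, 2018, 2544 and 2891 CPM in ko/ko. ko/ko replicates 1 and 2 lay under the wt/wt range, and replicates 3 and 4 lay within it. The wt/wt mean was 3061 ± 423 CPM (SD, n = 5) and that of ko/ko was 2256 ± 580.3 CPM (SD, n = 4), and the log2 fold change of -0.44 (SE 0.20) did not pass (edgeR adjusted p = 0.33, unadjusted p = 0.0511, fold interval 0.543 to 1.002).

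Btg2, an antiproliferative gene that is also a p53 target, was the gene whose genotypes did not overlap in TMM-adjusted CPM. It had 2739, 2752, 2956, 3504 and 3753 CPM in wt/wt and 2277, 2685, 2696 and 2648 CPM in ko/ko. The highest ko/ko value lay just under the lowest wt/wt values, those of replicates 1 and 2. As a share of all counts the genotypes overlapped, with ko/ko replicate 3 above wt/wt replicates 1 to 3. Btg2 had 57514 of 19402137 counts in ko/ko replicate 3 and 60523 of 22176370 in wt/wt replicate 3. The difference in log2 CPM by edgeR was -0.29 (SE 0.16, edgeR adjusted p = 0.419, fold interval 0.644 to 1.044). This 1 gene of 10 without overlap in TMM-adjusted CPM is read against the shares of all tested genes by the same measure. These are 6.25% with no overlap in either direction, 2.74% with ko/ko lower and 3.51% with ko/ko higher.

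Zfp36 and Dusp1 encode proteins that end the response, the former by mRNA decay and the latter by removing phosphate from MAP kinases. Zfp36 had 4674, 4449, 5354, 5742 and 5892 CPM in wt/wt and 4657, 5006, 4635 and 4496 CPM in ko/ko. The ko/ko values lay close together, at the lower end of the wt/wt range. On the log2 scale ko/ko over wt/wt was -0.15 (SE 0.15, edgeR adjusted p = 0.66, fold interval 0.714 to 1.133). Zfp36 shares 125 exon bases with Gm44710 on the other strand, a gene with 136 counts over all libraries.

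Dusp1 had 5118, 3850.3, 4139, 3864 and 3809.5 CPM in wt/wt and 4680.3, 4472, 3059 and 5151 CPM in ko/ko. wt/wt replicate 1 stood above the other wt/wt libraries, and ko/ko replicate 3 held the lowest value of all. The log2 fold change was 0.063 (SE 0.19, edgeR adjusted p = 0.898, fold interval 0.788 to 1.385).

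No gene of the set was called: 0 of 10 passed an adjusted p of 0.05 in edgeR's quasi-likelihood test, where 0.00542% of 18435 genes passed. An unadjusted p under 0.05 was reached by 0 of the 10, against 15.3% of all tested genes (8.86% higher and 6.42% lower in ko/ko). DESeq2 called 0 of 10 and 3.42% of all genes, limma voom with sample quality weights called 0 of 10 and 9.77% of all (3.17% as lower), and edgeR with 1 surrogate variable called 0 of 10 and 1.25% of all (1.02% as higher). The median log2 fold change of the 10 was -0.089, beside -0.026 over all tested genes, with 8 of 10 below 0. With scaling by library totals alone the median over all genes shifted by 0.11, that of the 10 was 0.021, and 5 of 10 were below 0. The intervals do not show that the genotypes are alike: apart from Egr3, lower bounds of the fold ran from 0.543 (Ier3) to 0.797 (Egr1) and upper bounds from 1.0016 (Ier3) to 1.496 (Nr4a2).

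**Figure D2:**
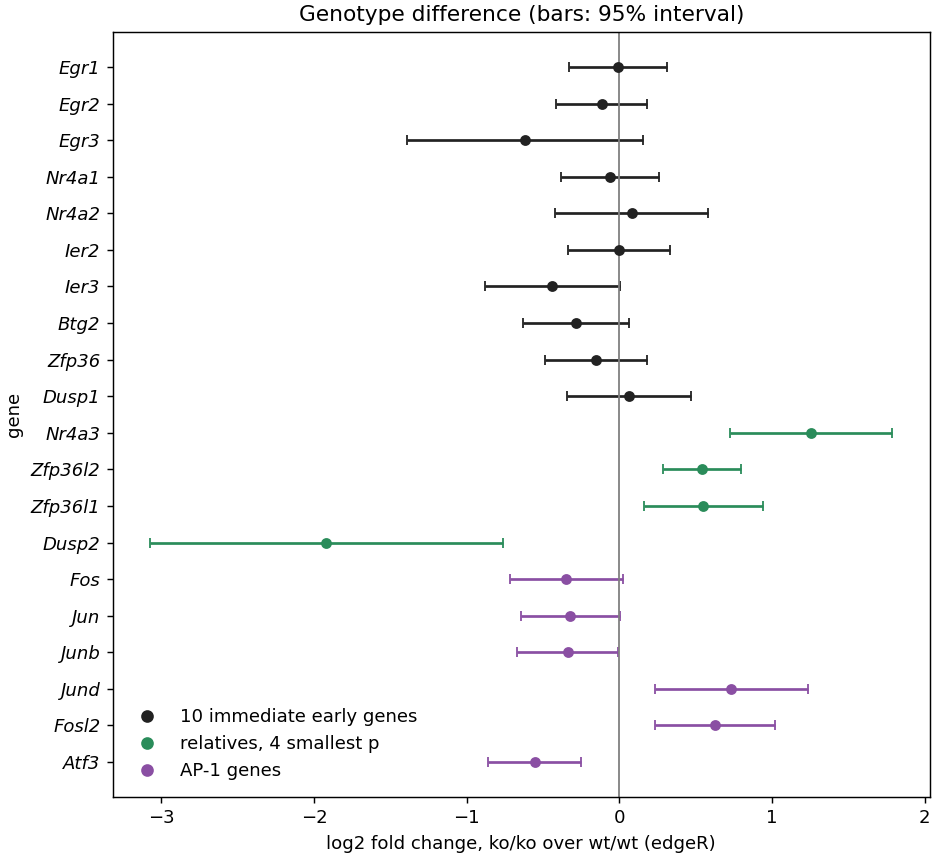
Log2 fold change of ko/ko over wt/wt (x axis) with its 95% interval from edgeR, not adjusted for the number of genes, for the 10 genes (black), 4 relatives (green) and 6 AP-1 genes (purple). The intervals of all 10 include 0, from Egr3 at -0.62 to Nr4a2 at 0.080, while Nr4a3 lies at 1.26 and Atf3 at -0.56.

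The spread between libraries was small for most of these genes. The 9 of them with a mean of at least 500 CPM had a median coefficient of variation of 12.2% in wt/wt and 11.1% in ko/ko, beside 22.6% and 19.4% over all 228 genes of that level. Values ran from 7.01% (Egr2) to 20.6% (Nr4a2) in wt/wt and from 4.62% (Zfp36) to 28.3% (Nr4a2) in ko/ko.

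Libraries differed in a shared direction for part of the genes, with ko/ko replicate 1 lowest for 6 of the 10 and wt/wt replicate 5 highest for 3. In ko/ko replicate 1, Ier2 was highest and Dusp1 lay above its mean. The median over the genes of log2 CPM, each gene centred on its own mean, was lowest in ko/ko replicate 1 (-0.22) and highest in wt/wt replicate 5 (0.16), and lay between -0.064 and 0.12 in the other libraries. These values depend on the TMM factors, of which ko/ko replicate 1 had the largest, 1.11, and wt/wt replicate 5 had 0.940. A larger factor lowers CPM. By unadjusted counts the 10 genes took 2.85% in ko/ko replicate 1, inside the wt/wt range, and 2.96% in wt/wt replicate 5. The part of the scaling in this pattern was not tested. ko/ko replicate 1 also had the fewest counts, 15601859, the highest myeloid sum, 269 CPM, and a mitochondrial share of 6.30%, where ko/ko replicates 2 to 4 had 1.81% to 2.01% and wt/wt libraries 2.77% to 7.55%. The part of these measures in the gene values was not tested. Without that library the log2 fold change of Ier3 was -0.30 and that of Btg2 was -0.23, and 0 of the 10 genes were called.

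**Figure D3:**
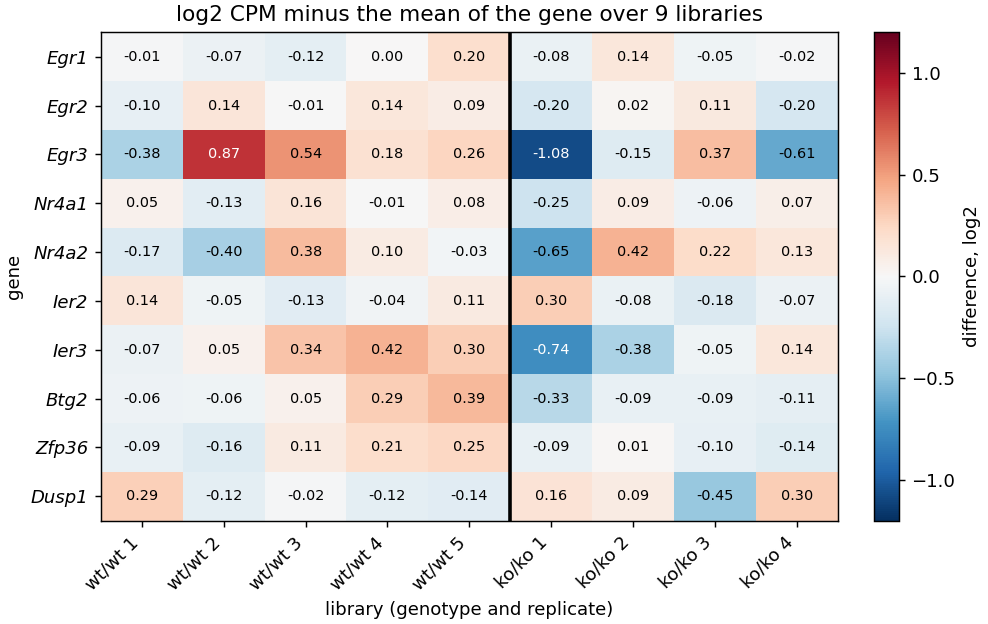
Log2 CPM of each gene (rows) in each library (columns) minus the mean of that gene over the 9 libraries; red is above and blue below the mean, and the line separates wt/wt from ko/ko. Egr3 ranges from -1.08 to 0.87, ko/ko replicate 1 is at -0.74 for Ier3 and -0.65 for Nr4a2 but at 0.30 for Ier2, and Egr1 stays between -0.12 and 0.20.

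Levels can be compared between genes only per exon length, here as CPM per kilobase averaged over libraries. Ier3 was highest, at rank 16 of all 49671 gene rows, followed by Nr4a1 (20), Dusp1 (21), Zfp36 (22), Egr1 (27), Ier2 (30), Btg2 (36), Nr4a2 (200), Egr2 (347) and Egr3 (9576). The last 4 genes of that order, from Btg2 to Egr3, kept it in 9 of 9 libraries. From Ier3 to Btg2 no pair of neighbours kept its order in every library: Ier3 was above Nr4a1 in 7 of 9 libraries, Dusp1 above Zfp36 in 5 and Egr1 above Ier2 in 8. The exon length used for Zfp36, 3470 bases in 1 merged exon, takes in the promoter stretch shown above, upstream of the RefSeq start. Its level per length and its place in the order are therefore uncertain.

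Within families the genes of the set had higher levels per exon length than the relatives measured, in 9 of 9 libraries for each family. Nr4a1 had 1730.0 ± 126.3 CPM per kilobase (SD, n = 5) in wt/wt, Nr4a2 had 264 ± 54.3 and Nr4a3 had 5.82 ± 2.14. Zfp36 had 1505 ± 184, against 24.9 ± 6.08 for Zfp36l1 and 17.0 ± 1.06 for Zfp36l2, which encode related AU-rich element binding proteins. Of the 2984 exon bases of Zfp36l1, 1672 overlap Gm26669 on the other strand, so its level per length is uncertain. Dusp1 had 1541 ± 205, and Dusp6, a phosphatase specific for ERK and the nearest relative in level, had 112 ± 48.3. Egr4 was at 0 to 9 counts per library and too low to be tested.

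**Figure D4:**
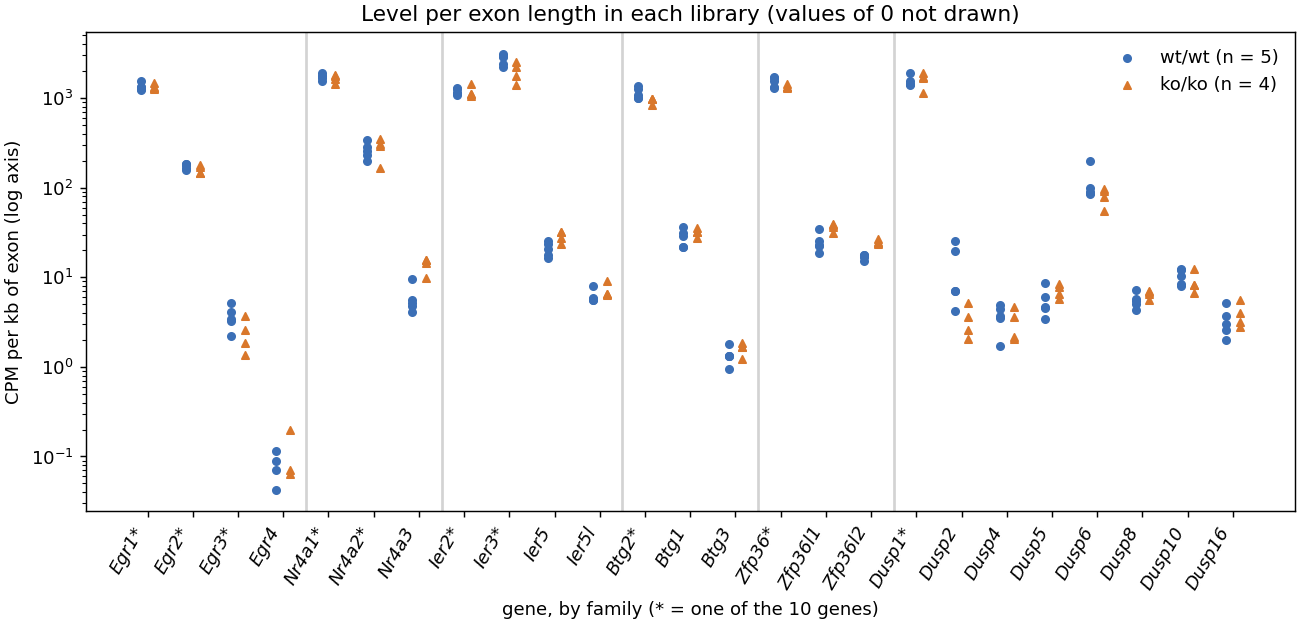
CPM per kilobase of exon (log axis) in each library for the 10 genes (marked with an asterisk) and related genes, by family, with wt/wt as circles and ko/ko as triangles; values of 0 are not drawn. Btg2, at 1145 ± 168 in wt/wt, lies above Btg1 and Btg3 in every library, and Egr3 lies below Egr1 and Egr2 in every library.

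Among 16 tested relatives of 17, 11 had positive and 5 negative log2 fold changes (median 0.23, and 0.33 by library totals). In edgeR's test 0 passed, with 4 higher and 1 lower at an unadjusted p under 0.05, beside 8.86% and 6.42% of all genes. DESeq2 called 2 as higher and 1 as lower in ko/ko, beside 2.38% and 1.04% of all genes. Weighted voom called 2 as higher (Nr4a3 and Zfp36l2) and 0 as lower, beside 6.6% and 3.17% of all genes. The fit with 1 surrogate variable called the same 2 as higher and Dusp2 as lower, beside 1.02% and 0.233%. Nr4a3, the third receptor of its family, had 59.5, 92.4, 86.7 and 94.0 CPM in ko/ko against 30.7, 29.0, 57.0, 33.1 and 24.4 CPM in wt/wt, with every ko/ko value above every wt/wt value. Its log2 fold change was 1.26 (SE 0.24, edgeR adjusted p = 0.127, DESeq2 adjusted p = 0.000579). With no filter on low counts it passed edgeR's test (adjusted p = 0.0464).

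Zfp36l2 had 85.3, 94.2, 86.7 and 83.2 CPM in ko/ko against 59.3, 63.2, 61.3, 62.6 and 53.9 CPM in wt/wt, again without overlap. Its log2 fold change was 0.54 (SE 0.12, edgeR adjusted p = 0.129, DESeq2 adjusted p = 0.000501). For Zfp36l1 the log2 difference was 0.55 (SE 0.18, edgeR adjusted p = 0.209), and 1672 of its exon bases overlap Gm26669 on the other strand. Dusp2, a phosphatase known from activated lymphocytes, had 7.28, 4.08, 10.4 and 5.21 CPM in ko/ko against 51.1, 39.7, 14.02, 8.39 and 14.2 CPM in wt/wt. wt/wt replicates 1 and 2 were high, and wt/wt replicate 4 lay below ko/ko replicate 3. The difference in log2 CPM by edgeR was -1.92 (SE 0.53, edgeR adjusted p = 0.161, DESeq2 adjusted p = 0.00752). The fit with 1 surrogate variable gave -2.05 (edgeR adjusted p = 0.0281) and weighted voom a smaller size, -1.05 (limma adjusted p = 0.117). Leaving out the 3 libraries with most Gm10800 counts gave -1.40 (edgeR adjusted p = 0.414). Whether Nr4a3 differs in its response from Nr4a1 and Nr4a2 was not tested.

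Of the 25 upstream kinases and factors, 16 had positive and 9 negative log2 fold changes (median 0.31, and 0.41 by library totals). In edgeR's test 0 passed, while 3 were higher and 2 lower at an unadjusted p under 0.05, beside 8.86% and 6.42% of all genes. DESeq2 called 0, and weighted voom called 6 as higher, namely Braf, Elk4, Mapk14, Mapk8, Rps6ka3 and Srf, beside 6.6% of all genes higher by that tool. Braf, a kinase at the top of the ERK cascade, had a log2 change of 0.65 (SE 0.23), and Mapk3, which encodes ERK1, had 0.44 (SE 0.19). Rps6ka4, a kinase of nucleosomes and CREB, had -0.59 (SE 0.24). The edgeR adjusted p of these 3 ran from 0.234 to 0.312. Braf shares 146 exon bases with Ndufb2 on the other strand, so its count is uncertain. With the exon length trend removed, the log2 change of Braf was smaller, 0.38 (edgeR adjusted p = 0.354).

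Of the 8 AP-1 genes 2 had positive and 6 negative log2 fold changes (median -0.25, and -0.14 by library totals). None passed edgeR's test (0 of 8), and 2 were higher and 2 lower at an unadjusted p under 0.05, beside 8.86% and 6.42% of all genes. DESeq2 called 1 as higher (Fosl2) and 1 as lower (Atf3), beside 2.38% and 1.04% of all genes. Weighted voom and the fit with 1 surrogate variable each called Atf3 alone, as lower, beside 3.17% and 0.233% of all genes. In TMM-adjusted CPM the genotypes did not overlap for Fos, Junb and Atf3, with ko/ko lower, and for Fosl2, with ko/ko higher. These were 3 and 1 of 8, beside 2.74% and 3.51% of all genes. As a share of all counts Fos and Junb overlapped, with ko/ko replicate 3 above wt/wt replicate 3, and Atf3 and Fosl2 did not. Fos had 207857 of 19402137 counts in ko/ko replicate 3 and 215379 of 22176370 in wt/wt replicate 3, and Junb had 112676 and 124542. Fos, the most abundant, had a wt/wt mean of 12108 ± 2045 CPM (SD, n = 5) and a ko/ko mean of 9507 ± 377 CPM (SD, n = 4). The same means were 6276 ± 599 and 4965 ± 454 CPM for Junb, and 2614 ± 310.1 and 2089.6 ± 133 CPM for Jun. Atf3, a stress factor of the same class, had 1732, 1783, 1832 and 1759 CPM in ko/ko against 2367, 2535, 2477, 2724 and 2953 CPM in wt/wt. Its log2 fold change was -0.56 (SE 0.14, edgeR adjusted p = 0.145, DESeq2 adjusted p = 0.000223). Fosl2 and Jund had positive log2 fold changes, 0.62 (SE 0.18, edgeR adjusted p = 0.174) and 0.73 (SE 0.23, edgeR adjusted p = 0.198). With the exon length trend removed Fosl2 had 0.46 and Jund had 0.74 (edgeR adjusted p = 0.226 and 0.191). Junb shares 173 exon bases with Prdx2 on the other strand. Jund shares 877 of its 1668 exon bases with Gm11175, also on the other strand, which had 0 counts over all libraries. The counts of Junb and Jund are therefore uncertain.

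Of 32 other rapidly induced genes 13 had positive and 19 negative log2 fold changes (median -0.17, and -0.072 by library totals). In edgeR's test 0 passed, with 6 higher and 5 lower at an unadjusted p under 0.05, beside 8.86% and 6.42% of all genes. DESeq2 called 3 as higher (Klf9, Mcl1 and Rhob) and 1 as lower (Klf6), beside 2.38% and 1.04% of all genes. Weighted voom called 3 as higher, Klf9 and Rhob among them, and 1 as lower, beside 6.6% and 3.17%. The fit with 1 surrogate variable called Klf9 alone, as higher, beside 1.02%. Klf9, a Krüppel-like factor induced by glucocorticoid, differed on the log2 scale by 0.85 (SE 0.15, edgeR adjusted p = 0.0951, DESeq2 adjusted p = 0.000138). Rhob, a small GTPase of endosomes, had 1.01 (SE 0.23, edgeR adjusted p = 0.13), and Mcl1, a survival protein, had 0.52 (SE 0.16, edgeR adjusted p = 0.184). Klf6, another Krüppel-like factor, had -0.52 (SE 0.17, edgeR adjusted p = 0.208). In TMM-adjusted CPM the genotypes did not overlap for 5 of the 32 with ko/ko higher and for 2 with ko/ko lower. These 4 genes were among them, beside 3.51% and 2.74% of all genes. As a share of all counts Klf6 overlapped, with 18636 of 19402137 in ko/ko replicate 3 and 18454 of 22176370 in wt/wt replicate 3.

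Of 12 genes whose mRNAs carry AU-rich elements, the class bound by the Zfp36 protein, 11 were tested and 7 had positive log2 fold changes (median 0.051, and 0.16 by library totals). In edgeR's test 0 passed, with 3 higher and 0 lower at an unadjusted p under 0.05, beside 8.86% and 6.42% of all genes. DESeq2 called Vegfa alone, as higher (DESeq2 adjusted p = 0.0378), beside 2.38% of all genes. Vegfa, a vascular growth factor, had a log2 change of 1.18 (SE 0.35, edgeR adjusted p = 0.184). Il1b, a cytokine of myeloid cells, had 14.1, 15.03, 6.70 and 0.303 CPM in ko/ko and 2.24, 0.577, 0.635, 0.203 and 0 CPM in wt/wt. The summed myeloid markers in the same ko/ko libraries were 269, 266, 138 and 57.8 CPM, and their part in the Il1b values was not tested. For the chemokine genes the log2 differences were 1.35 (Ccl7, SE 0.50) and 0.70 (Ccl2, SE 0.37), with edgeR adjusted p of 0.248 and 0.401.

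The genes outside these lists whose profile over the 9 libraries was nearest to the median centred profile of the 10 were Gm13904, Cbr1, Rab2b, Atp6v0c, Pex19 and Psme1. Likeness was the root mean square difference in log2 CPM over 9 libraries among 9610 genes with a mean of at least 10 CPM, and it ran from 0.045 to 0.066 for these 6, against a median of 0.30 over all compared. Among the 10 genes themselves it ran from 0.079 (Zfp36) and 0.085 (Nr4a1) to 0.28 (Nr4a2 and Dusp1) and 0.52 (Egr3). The 6 were picked as the nearest of 9610 genes, so their distance below the median was fixed in advance. The median profile lay between -0.22 and 0.16, so genes that vary little also come near it. Rab2b, Atp6v0c and Psme1 overlap other genes, and Gm13904 is a predicted gene.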

How the data were processed

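The authors deposited raw read counts per gene, with the exon length and exon positions of each gene, with samples as columns. The tools, as named per the submitters' processing notes, were GSNAP 2018-07-04 and featureCounts 1.6.2, with the build mm10. Per the labels' protocols, 3 ng of cDNA, amplified over 13 cycles by a SMART method, entered a transposase-based library preparation. How strand, multi-mapped and duplicate reads were treated is not given in the sources used here. Overlapping genes may therefore share reads. No molecular identifiers are named, and intervals cover PCR error only as far as it adds to the spread between libraries.

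Of 49763 rows, 92 spike-in rows were left out. Symbols came from GENCODE M21 and were found for 49326 rows. Samples were grouped by the genotype in the labels, with replicate numbers in accession order that pair nothing. Samples have separate identifiers, but nothing states that they are separate animals, so p-values measure the spread between samples. edgeR 4.0.16 in R 4.3.3 was used with filterByExpr, TMM, glmQLFit (robust=TRUE) and glmQLFTest, two-sided, and p-values were adjusted by the Benjamini-Hochberg method over all 18435 genes, threshold 0.05. Each SE was obtained by dividing the size of the log2 change by the root of F. The fit was tested on simulated counts, drawn independently for each gene and library, without the cell mixture of these samples. A gene that was not called is not shown to be unchanged. Alternatives used DESeq2 1.42.0, limma 3.58.1 voom, sva 3.50.0, other scalings and filters, a loess correction for exon length (span 0.3) and left-out libraries.

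The 10 genes and the lists were chosen with earlier results of these data known. Beside the 10, the text names up to 4 genes of each list by smallest p, the main AP-1 genes and the 6 genes of nearest profile. Genes called by weighted voom among the upstream factors, Dusp6, Egr4, Btg1 and Btg3 were named after their values were seen. So were the markers C1qc, Cd74, Fcer1g, Laptm5, Cd207, Lyve1, Flt1, Itga6, Dst and Krt15. Of the upstream list, 1 gene so chosen is not reported here. No sequence is printed for Egr1, Egr3 and Ier2.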

Additional observations from a re-analysis of the deposited data

Results flagged for a closer look

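In 104 groups of 4 or 5 libraries, 10 held a single library far from the rest, measured as its gap to the nearest other library over the range of the group. About 1 group in 20 is expected to do so by chance, or 5.2 groups. Among the 10 immediate early genes these were Btg2 in ko/ko replicate 1, low at 2277 CPM against 2648 to 2695.5 CPM, and Dusp1 in wt/wt replicate 1, high at 5118 CPM against 3809.5 to 4139 CPM. Egr1, Egr2, Egr3, Nr4a1, Nr4a2, Ier2, Ier3 and Zfp36 had no such library in either genotype.

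Among related genes, Nr4a3 was high in wt/wt replicate 3, at 57.0 CPM where the rest of wt/wt had 24.4 to 33.1 CPM. Ccl2 was high in the same library, at 164 CPM against 47.2 to 76.6 CPM, and Il1b was high in wt/wt replicate 1, at 2.24 CPM against 0 to 0.635 CPM. Ptprc, which encodes CD45, was high in ko/ko replicate 1, at 7.17 CPM against 0.910 to 1.87 CPM.

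Of the library measures, ko/ko replicate 1 had a mitochondrial share of 6.30%, where the rest of ko/ko had 1.81% to 2.01%, and mt-Co1 had 6265 CPM there against 1673 to 2449 CPM. The predicted gene Gm10800 reached 2149.9 CPM in wt/wt replicate 1, where others of that genotype had 2.94 to 257 CPM. Summed basal keratinocyte markers were highest in wt/wt replicate 2, 3229 CPM, with 1514 to 1913 CPM in the rest. The spike-in rows, which no comparison uses, summed to 6 counts for wt/wt replicate 1 and to 1 to 3 for each other library, with 3 counts taken as the limit that a count of 0 allows.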

How the results depend on the processing

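None of the 10 immediate early genes was called in any of 21 alternative fits, and the median of their log2 fold changes ran from -0.13 (no filter) to 0.021 (library totals alone). Egr2, Egr3, Ier3, Btg2 and Zfp36 stayed below 0 in all 21. The smallest adjusted p of the 10 was 0.092, for Ier3 with weighted voom, whose values over the 21 alternatives ran up to 0.599. Signs of values near 0 turned. Egr1 was 0.016 with upper-quartile factors, 0.10 with library totals, 0.0061 with the stricter filter, 0.023 with 1 surrogate variable, 0.019 with the exon length trend removed and 0.033 without the 3 libraries richest in Gm10800 counts, and ran from -0.058 to 0.046 as each replicate was left out. Ier2 was 0.023, 0.11, 0.010 and 0.019 with upper-quartile factors, library totals, the stricter filter and the length trend removed, and ran from -0.12 to 0.050 over left-out replicates. Nr4a1 was 0.045 with library totals and -0.10 to 0.0023 over left-out replicates. Dusp1 was -0.058 without the 3 Gm10800-rich libraries and -0.034 to 0.20 over left-out replicates, and Nr4a2 ran from -0.049 to 0.26. The cause was not tested.

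Over all genes, the calls of 1 higher and 0 lower became 4 higher with library totals, 26 higher and 2 lower with no filter, 438 and 192 with DESeq2, 1217 and 585 with weighted voom, 188 and 43 with 1 surrogate variable, and 7 higher without the Gm10800-rich libraries, and ran from 0 to 12 higher over left-out replicates, with 12 without ko/ko replicate 4 and 0 without any other single library. With no filter 40310 genes were tested. No paired analysis was possible because the labels give no replicate numbers. Low counts limit Egr3, at 33 to 153 per library.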
